A study of Mus musculus with 9 samples.

Results

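The Rag GTPases, folliculin and the MiT/TFE transcription factors were followed in mouse liver RNA as 10 genes, taken by name from the 52550 gene identifiers measured. They are the Rag GTPase genes Rragd, Rragc, Rraga and Rragb, the folliculin gene Flcn with its partner genes Fnip1 and Fnip2, and the transcription factor genes Tfeb, Tfe3 and Mitf. All 10 were listed in each of the 9 libraries. The other 9 were chosen by name around Rragd, and Rragd was chosen by its measured FPKM in these libraries, which is highest in double-mutant liver. Rragd is therefore described without a test, and the p-values of the other 9 genes are printed beside the share of all genes called.

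Livers came from mice of 3 genotypes aged 320 days, with 3 libraries each. The p53+/- mice (p53-heterozygous below) carry 1 inactive copy of Trp53, the gene of the tumour suppressor p53. The Tsc1fl/fl;Alb-Cre mice (Tsc1-deleted) carry Tsc1 alleles that Cre recombinase removes, with Cre under the albumin promoter, which is active in hepatocytes and in the hepatoblasts that also give rise to cholangiocytes, so cholangiocytes can carry the deletion too, while liver cells of other lineages keep Tsc1. The p53+/-;Tsc1fl/fl;Alb-Cre mice (double mutant) combine these alleles. The double mutant thus shares the Trp53 allele with the first group and the Tsc1 deletion with the second. Libraries of wild-type liver were not analysed here, and the labels do not say whether a piece of liver held tumour. The series counts 6 groups in its design, of which these 3 were analysed. The labels do not state whether each library of a genotype is a different mouse, so p-values measure the spread between libraries, which may be technical.

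The Rag GTPases work as pairs, RagA or RagB with RagC or RagD, and when amino acids are plentiful they bring the growth kinase mTORC1 to the lysosome, where Rheb switches it on. The complex that holds the Tsc1 protein restrains Rheb. Folliculin, bound to FNIP1 or FNIP2, stimulates GTP hydrolysis by RagC and RagD, and this form of RagC and RagD presents TFEB, TFE3 and MITF to mTORC1, which phosphorylates them and keeps them out of the nucleus. In the nucleus these factors bind E-boxes of the CLEAR type in genes of lysosomes and autophagy, and Rragd, Rragc, Flcn and Fnip genes are among their known targets in mouse and human cells. In mouse liver, TFEB is known for its part in lipid breakdown during fasting.

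The promoters of the 4 Rag genes are shown because they are paralogs of which Rragd alone separated the 3 genotypes on both scales, and because E-boxes are the sites that MiT/TFE factors bind. The sequences are the RefSeq promoters of build GRCm38.p6, from 250 bases before to 50 bases after the gene start. All 4 lie on the plus strand, and capitals mark each CACGTGA found. The Rragd window is chr4:32982748-32983047, the Rragc window chr4:123917183-123917482, the Rraga window chr4:86575423-86575722 and the Rragb window chrX:153139708-153140007.
Rragd: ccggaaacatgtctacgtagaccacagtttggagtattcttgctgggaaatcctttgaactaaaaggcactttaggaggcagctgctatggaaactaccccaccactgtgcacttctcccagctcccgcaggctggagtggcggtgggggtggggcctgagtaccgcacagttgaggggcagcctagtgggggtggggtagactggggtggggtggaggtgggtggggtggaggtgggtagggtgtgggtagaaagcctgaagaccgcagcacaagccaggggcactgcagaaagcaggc
Rragc: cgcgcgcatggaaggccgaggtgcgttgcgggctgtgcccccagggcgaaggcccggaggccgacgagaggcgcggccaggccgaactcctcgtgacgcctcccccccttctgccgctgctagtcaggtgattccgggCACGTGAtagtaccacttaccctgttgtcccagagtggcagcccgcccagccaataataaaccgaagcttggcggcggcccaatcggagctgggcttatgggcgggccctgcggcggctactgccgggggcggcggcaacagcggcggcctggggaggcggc
Rraga: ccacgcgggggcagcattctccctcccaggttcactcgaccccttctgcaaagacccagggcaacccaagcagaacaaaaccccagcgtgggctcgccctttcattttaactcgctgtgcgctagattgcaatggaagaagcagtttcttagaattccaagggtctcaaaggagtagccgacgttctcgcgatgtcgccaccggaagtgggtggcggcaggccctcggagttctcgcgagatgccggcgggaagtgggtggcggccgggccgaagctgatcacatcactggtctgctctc
Rragb: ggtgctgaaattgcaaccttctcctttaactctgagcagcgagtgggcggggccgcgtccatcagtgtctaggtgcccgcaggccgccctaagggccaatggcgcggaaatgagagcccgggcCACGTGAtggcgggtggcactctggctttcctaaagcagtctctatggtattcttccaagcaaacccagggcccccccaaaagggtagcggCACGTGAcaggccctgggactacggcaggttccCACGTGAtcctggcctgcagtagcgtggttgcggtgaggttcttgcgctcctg

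The motifs searched were CACGTG, which reads the same on both strands, and its 7-letter extension TCACGTG. That extension contains CACGTG and is CACGTGA when read on the other strand. A further motif, TCATGTG, was searched on both strands, and reads CACATGA on the other. Positions are counted from the gene start, with the base before it at -1, and give the first letter of the motif. The Rragc window held 1 CACGTGA, at -112. The Rragb window held 3, at -127, -36 and -3. Neither the Rragd nor the Rraga window held CACGTG or TCATGTG in either direction. All 10 genes had promoters in the RefSeq table, 15 in all since Tfeb, Tfe3 and Mitf have more than 1 start, and 3 of the 15 held CACGTG. The other was that of Fnip1, at chr11:54437929-54438228 on the plus strand, with CACGTGA at -75. None of the 15 held TCATGTG on either strand. Among all 32851 promoters of the table, 7.15% held CACGTG, 3.77% held TCACGTG on either strand, 3.77% held TCATGTG on either strand, and 0.0883% held CACGTG in 3 or more places. A match describes letters in this window and not a bound site.

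Expression was given as FPKM, a read count divided by gene length and by the mapped reads of the library, so levels of different genes can be set side by side. The estimated depth was 10700000 to 18300000 reads per library. The p53-heterozygous libraries stood apart. The read signal of a library was taken as FPKM times exon length, summed over genes. It came from nuclear protein-coding genes by 7.4%, 6.6% and 61.8% in p53-heterozygous libraries 1, 2 and 3. This part was 65.9% to 85.4% for Tsc1-deleted and 82.0% to 87.3% for double-mutant liver. Mitochondrial genes held 68.0%, 55.9% and 25.5% of this read signal in the p53-heterozygous libraries. They held 20%, 24.1% and 9.6% in the Tsc1-deleted and 8.0%, 10.4% and 11.9% in the double-mutant libraries. This share was thus highest in the group with the least Rragd, and the other groups overlapped. Its part in the results was not tested. Each value is therefore given as deposited and after scaling every library to the same total of nuclear protein-coding FPKM, called rescaled. Rescaling multiplied p53-heterozygous libraries 1, 2 and 3 by 10.3, 11.1 and 1.33, and the other 6 libraries by 0.957 to 1.05. It moved the median change of all tested genes from 1.07 to -0.13 on the log2 scale in Tsc1-deleted minus p53-heterozygous liver, and from 1.38 to 0.15 in double mutant minus p53-heterozygous liver.

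The makeup of the libraries also differed. Alb, the albumin gene that marks hepatocytes, stood as deposited at 2216, 2375 and 149.5 FPKM in p53-heterozygous libraries 1, 2 and 3. It stood at 7971 to 12314 FPKM in the other 6. Rescaled, it ran from 199 in p53-heterozygous library 3 to 26383 in library 2 of that group. The Tsc1-deleted libraries then held 8368 to 12278 and the double-mutant ones 8601 to 11728 FPKM. The order of the groups for Alb thus depended on the scale and the library. The rescaled sum of 8 hepatocyte markers was 38300, 38900 and 568 in the p53-heterozygous libraries, 20900 to 30000 in the Tsc1-deleted and 17700 to 22000 in the double-mutant libraries. In the same order, the sum of 6 cholangiocyte markers was 149, 108 and 2550, then 532 to 2610, then 985 to 3540. The sum of 7 Kupffer cell and macrophage markers was 195, 199 and 1710, then 107 to 271, then 127 to 486. The sum of 8 stellate cell and fibroblast markers was 109, 69.2 and 898, then 40.0 to 69.3, then 12.1 to 98.0. The sum of 6 endothelial markers was 23.3, 32.9 and 25.3, then 16.9 to 22.8, then 2.37 to 22.1. The sum of 6 lymphocyte markers was 15.1, 35.0 and 9.05, then 1.97 to 4.64, then 1.67 to 6.26. The sum of 5 erythroid markers was 10400, 21900 and 116, then 155 to 474, then 23.5 to 311. The 4 melanocyte markers, included because Mitf is the melanocyte factor, summed to 0.282 or less everywhere, with Tyr at 0 in all 9 libraries. No other marker was at 0 in every library. Of the altered genes, Tsc1 as deposited lay between 0.15 and 0.99 FPKM in the p53-heterozygous libraries. It lay between 0.77 and 0.95 in the Tsc1-deleted and 1.04 and 1.14 in the double-mutant libraries. Trp53 lay between 0.5 and 15.4, 7.07 and 16.4, and 5.88 and 9.68. Rescaled, Tsc1 lay between 1.32 and 2.81, 0.77 and 0.96, and 1.02 and 1.13 FPKM in the same order. Both groups with the Tsc1 deletion were then below the p53-heterozygous group without overlap. In Tsc1-deleted minus p53-heterozygous liver 13.7% of all genes tested did so. Rescaled Trp53 overlapped, between 5.45 and 20.6, 7.05 and 15.66, and 5.83 and 9.32 FPKM. A whole-gene value does not separate the deleted exons of Tsc1 or the inactive Trp53 copy, so these levels do not check the labels. In whole-liver RNA, fewer cells of a type and less RNA per cell cannot be told apart.

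Rragd (ENSMUSG00000028278, chromosome 4) encodes RagD. The p53-heterozygous libraries held 0.16, 0.08 and 0.94 FPKM of it. The Tsc1-deleted libraries held 11.6, 12.5 and 16 FPKM, and the double-mutant libraries 38.4, 52.2 and 34.4 FPKM. The 3 genotypes did not overlap, and every double-mutant library was above every Tsc1-deleted one. Rescaled, the p53-heterozygous libraries held 1.68, 0.834 and 1.25 FPKM, the Tsc1-deleted 11.6, 13.1 and 15.3, and the double mutant 37.0, 51.8 and 34.4. The order of the groups was the same, and the 3 p53-heterozygous libraries came closer to each other. The estimated reads behind these levels were 12, 4 and 65 in the p53-heterozygous libraries and 922 to 4514 in the other 6, so the lowest group rests on few reads.

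Group means of rescaled Rragd were 1.25 ± 0.421 FPKM in p53-heterozygous, 13.3 ± 1.85 in Tsc1-deleted and 41.0 ± 9.40 in double-mutant liver (SD, n = 3 libraries each). The double mutant was thus 3.08-fold above the Tsc1-deleted mean and 32.8-fold above the p53-heterozygous mean, and the Tsc1-deleted mean was 10.6-fold above the p53-heterozygous one. As deposited the same ratios were 3.12, 106 and 34.2. On the log2(FPKM + 1) scale, which understates changes of low levels, the rescaled difference between double mutant and Tsc1-deleted liver was 1.54, with a standard error of 0.32, and the deposited difference was 1.56, with a standard error of 0.71. That difference was the 113th largest rise of 12591 genes rescaled and the 110th of 12014 as deposited. Rescaled, Tsc1-deleted minus p53-heterozygous liver gave 2.68 and double mutant minus p53-heterozygous liver 4.22, the 62nd and 16th largest rises. Without p53-heterozygous library 3 these rescaled values were 2.68 and 4.22, and without libraries 1 and 2 they were 2.66 and 4.2.

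Several cell type markers moved along with the step from Tsc1-deleted to double mutant. Of the 6 cholangiocyte markers, 4 were higher in every double-mutant library than in every Tsc1-deleted one. Over all genes 11.4% were so as deposited and 12.9% rescaled. In the other direction, 2 of 8 hepatocyte and 2 of 7 Kupffer cell and macrophage markers were lower without overlap. The share of all genes lower in this way is not given here. The rescaled cholangiocyte sums overlapped, from 532 to 2610 against 985 to 3540. The hepatocyte sums overlapped, from 20900 to 30000 against 17700 to 22000. The Kupffer cell and macrophage sums overlapped too, from 107 to 271 against 127 to 486, with the highest sum in the double mutant. Within the Tsc1-deleted group, library 3 had both the highest cholangiocyte sum, 2610, and the highest rescaled Rragd, 15.3 FPKM. Within the double mutant, library 2 had the lowest cholangiocyte sum, 985, and the highest Rragd, 51.8 FPKM. The part of these cells in the level of Rragd was not tested.

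Rragc (ENSMUSG00000028646, chromosome 4) encodes RagC, the paralog that takes the same place as RagD in the Rag pair. It stood at 0.77, 0.43 and 12.6 FPKM in p53-heterozygous, 15.1, 14.2 and 25.1 FPKM in Tsc1-deleted and 23.1, 27.7 and 26.7 FPKM in double-mutant libraries. Rescaled, the values were 7.91, 4.80 and 16.7, then 15.0, 14.9 and 24.0, then 22.2, 27.5 and 26.7 FPKM. The double-mutant libraries lay above all p53-heterozygous ones on both scales, but Tsc1-deleted library 3 lay within the double-mutant range. The rescaled log2 difference between double mutant and Tsc1-deleted liver was 0.51, standard error 0.44, with a limma adjusted p of 0.9. Against p53-heterozygous liver the double mutant was 1.44 higher on the rescaled log2 scale, adjusted p = 0.0912, and 3.04 higher as deposited, adjusted p = 0.0224.

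RagD therefore took a different share of the RagC and RagD transcripts in each genotype. Rragd made up 17.5%, 14.8% and 6.94% of summed Rragc and Rragd FPKM in the p53-heterozygous libraries. It made up 43.5%, 46.7% and 38.8% in the Tsc1-deleted libraries and 62.5%, 65.3% and 56.3% in the double mutant. The means were 13.1 ± 5.49%, 43.0 ± 3.97% and 61.4 ± 4.60% (SD, n = 3), and the groups did not overlap. Such a share is taken within a library, so it is the same on either scale. It is built on Rragd and so carries no test. By mean deposited FPKM, Rragd was the most abundant of the 10 transcripts in the double mutant. There the order was Rragd, Rragc, Rraga, Flcn, Fnip2, Fnip1, Tfe3, Tfeb, Mitf and Rragb. Neighbours in that order did not overlap between libraries, apart from Fnip2 with Fnip1, Fnip1 with Tfe3, and Mitf with Rragb. In Tsc1-deleted liver Rragd came after Rragc and Rraga, at a mean of 13.4 FPKM, within the spread of Rragc at 18.1 and Rraga at 14.3 FPKM. In p53-heterozygous liver it was last of the 10 by this mean, at 0.391 FPKM, level with Rragb at 0.394 FPKM within the spread of either. That place depended on library 3. Rragd was above Tfeb, Mitf and Rragb in library 1 and above Mitf and Rragb in library 2. By rescaled mean, at 1.25 FPKM, it was above Mitf at 1.21 and Rragb at 0.661 FPKM.

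Rraga (ENSMUSG00000070934, chromosome 4) encodes RagA, 1 of the alternative partners of RagC and RagD. It stood at 1.17, 0.84 and 13.7 FPKM in p53-heterozygous, 10.2, 8.37 and 24.2 FPKM in Tsc1-deleted and 22.9, 20.1 and 16.8 FPKM in double-mutant libraries. Rescaled, it stood at 12.0, 9.28 and 18.3, at 10.2, 8.79 and 23.2, and at 22.1, 19.9 and 16.8 FPKM. On the rescaled scale all 3 groups overlapped, and Tsc1-deleted library 3 held the most. The rescaled log2 difference was 0.57 between double mutant and Tsc1-deleted liver, 0.01 between Tsc1-deleted and p53-heterozygous liver and 0.58 between double mutant and p53-heterozygous liver, with standard errors of 0.43 and adjusted p of 0.898, 0.994 and 0.462.

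Rragb (ENSMUSG00000041658, chromosome X), the gene of RagB, was the other partner and was scarce. It was listed at 0, 0.04 and 1.14 FPKM in p53-heterozygous, 0.11, 0.14 and 0.26 in Tsc1-deleted and 0.90, 0.23 and 0.16 FPKM in double-mutant libraries, from 0 to 34 estimated reads. It did not reach 1 FPKM in 3 libraries and was not tested. Rragb made up at most 7.65% of summed Rraga and Rragb FPKM in any library. Rraga and Rragb are closely similar in sequence, and how reads matching both were assigned is not stated, so their split is uncertain. Over the 4 genes, summed Rragc and Rragd exceeded summed Rraga and Rragb 1.68-fold to 3.94-fold in the 6 libraries with the Tsc1 deletion, against 0.579-fold to 0.906-fold in the p53-heterozygous ones.

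**Figure D1:**
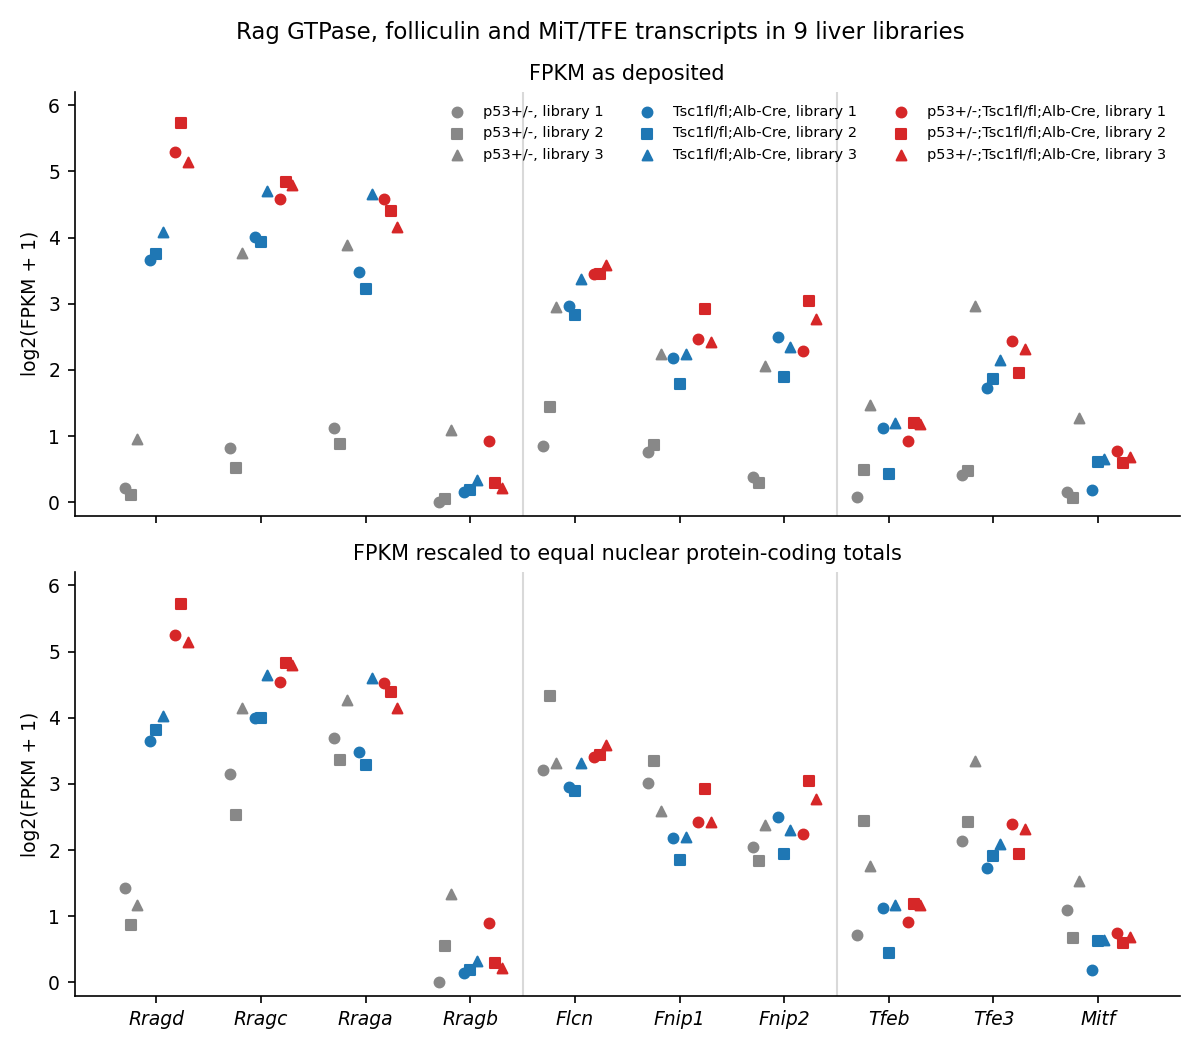
Level of the 10 genes in each of the 9 liver libraries as log2(FPKM + 1), with FPKM as deposited in the upper panel and rescaled to equal nuclear protein-coding totals in the lower one; colour gives the genotype and symbol the library. The 3 genotypes are separate for Rragd in both panels, while the p53-heterozygous points of most other genes move up to the level of the other groups after rescaling.

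Flcn (ENSMUSG00000032633, chromosome 11) encodes folliculin, the GTPase-activating protein for RagC and RagD. It stood at 0.80, 1.72 and 6.72 FPKM in p53-heterozygous, 6.78, 6.14 and 9.33 FPKM in Tsc1-deleted and 9.94, 9.95 and 11 FPKM in double-mutant libraries. Rescaled, it stood at 8.23, 19.1 and 8.97, at 6.76, 6.45 and 8.93, and at 9.58, 9.88 and 11 FPKM. The double-mutant libraries lay above the Tsc1-deleted ones on both scales, by 1.38-fold in rescaled means. The log2 difference was 0.42, standard error 0.36, and did not pass, adjusted p = 0.898. Against p53-heterozygous liver the deposited values of both Tsc1-deleted genotypes were higher and the rescaled ones lower, with log2 differences of 1.31 and -0.56 for Tsc1-deleted and 1.75 and -0.14 for double-mutant liver, and none passed.

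Fnip1 (ENSMUSG00000035992, chromosome 11) and Fnip2 (ENSMUSG00000061175, chromosome 3) encode the proteins that folliculin needs as partners. Fnip1 stood at 0.69, 0.82 and 3.75 FPKM in p53-heterozygous, 3.55, 2.47 and 3.73 FPKM in Tsc1-deleted and 4.52, 6.60 and 4.38 FPKM in double-mutant libraries. Rescaled, it stood at 7.05, 9.13 and 5.01, at 3.54, 2.59 and 3.57, and at 4.36, 6.55 and 4.38 FPKM. The double mutant lay above the Tsc1-deleted liver without overlap on both scales, and on the rescaled scale the Tsc1-deleted liver lay below the p53-heterozygous liver without overlap. Neither difference passed, with rescaled log2 values of 0.51 (adjusted p = 0.898) and -0.91 (adjusted p = 0.179) and standard errors of 0.32.

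Fnip2 stood at 0.30, 0.23 and 3.15 FPKM in p53-heterozygous, 4.64, 2.70 and 4.09 FPKM in Tsc1-deleted and 3.88, 7.27 and 5.83 FPKM in double-mutant libraries. Rescaled, it stood at 3.12, 2.58 and 4.2, at 4.63, 2.83 and 3.91, and at 3.74, 7.21 and 5.83 FPKM. The rescaled groups overlapped in each comparison. The double mutant was 1.79 higher than the p53-heterozygous liver on the deposited log2 scale, adjusted p = 0.0385, and 0.60 higher rescaled, adjusted p = 0.314. Fnip2 made up 30.7%, 22% and 45.6% of summed Fnip1 and Fnip2 FPKM in the p53-heterozygous libraries, and 46.2% to 57.1% in the other 6. Tsc1-deleted and double-mutant liver thus held the paralogs at similar levels, with mean Fnip2 shares of 53.7 ± 2.55% and 51.9 ± 5.50%, against 32.8 ± 11.9% in p53-heterozygous liver (SD, n = 3).

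**Figure D2:**
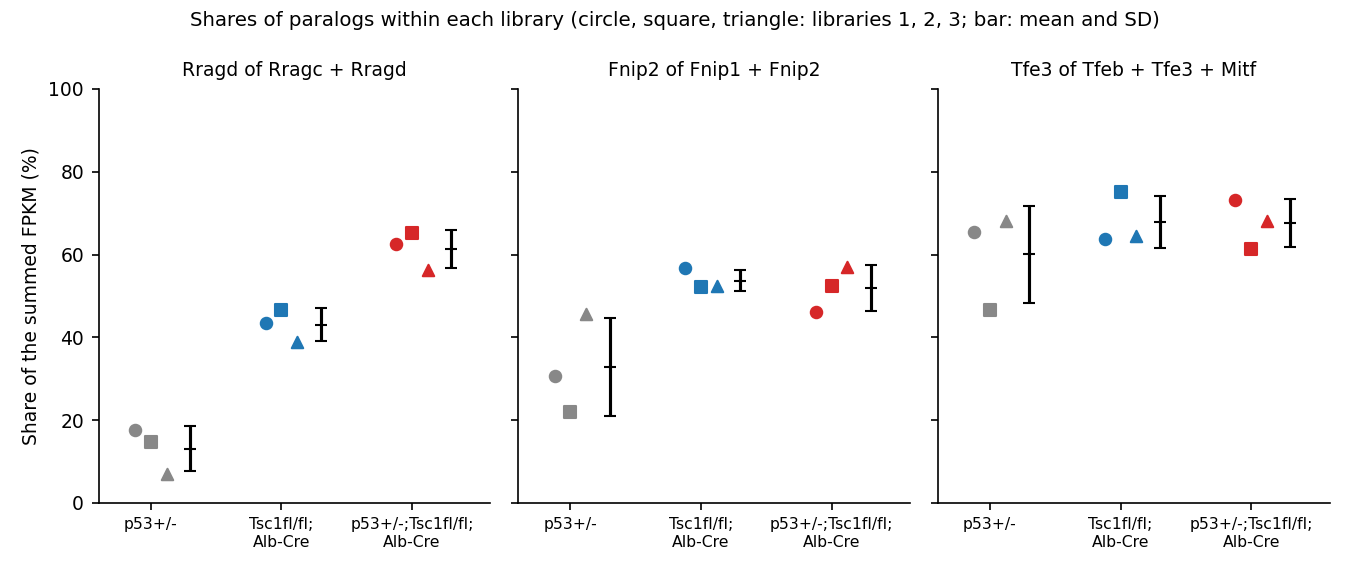
Share of a paralog in the summed FPKM of its family in each library, in percent, for Rragd of Rragc and Rragd, Fnip2 of Fnip1 and Fnip2, and Tfe3 of Tfeb, Tfe3 and Mitf; bars give the mean and SD of 3 libraries. The Rragd share has means of 13.1%, 43.0% and 61.4% with no overlap, while the Tsc1-deleted and double-mutant groups overlap in the other families.

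Tfe3 (ENSMUSG00000000134, chromosome X), 1 of the MiT/TFE factors that mTORC1 holds in the cytoplasm, had the most transcript of the 3 in every library except p53-heterozygous library 2. It stood at 0.33, 0.39 and 6.85 FPKM in p53-heterozygous, 2.30, 2.62 and 3.42 FPKM in Tsc1-deleted and 4.42, 2.87 and 4.00 FPKM in double-mutant libraries. Rescaled, it stood at 3.39, 4.37 and 9.14, at 2.30, 2.75 and 3.27, and at 4.26, 2.85 and 4.00 FPKM. Rescaled, every Tsc1-deleted library was below every p53-heterozygous one, and the double mutant overlapped both. The rescaled log2 difference between Tsc1-deleted and p53-heterozygous liver was -0.73, standard error 0.36, adjusted p = 0.325. Without p53-heterozygous libraries 1 and 2 it was -1.43, adjusted p = 0.0165, against the single library 3, which is assumed to vary like the other groups, and 35.2% of all genes passed in that fit.

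Tfeb (ENSMUSG00000023990, chromosome 17), the gene of the best known CLEAR-binding factor, was lower. It stood at 0.06, 0.40 and 1.77 FPKM in p53-heterozygous, 1.17, 0.35 and 1.3 FPKM in Tsc1-deleted and 0.91, 1.29 and 1.26 FPKM in double-mutant libraries. Rescaled, it stood at 0.651, 4.40 and 2.37, at 1.17, 0.367 and 1.25, and at 0.878, 1.28 and 1.26 FPKM, and all groups overlapped. The rescaled log2 difference between double mutant and Tsc1-deleted liver was 0.18, standard error 0.42, adjusted p = 0.944. Rescaled, both Tsc1-deleted genotypes averaged below p53-heterozygous liver, by log2 values of -0.72 and -0.54, and neither passed.

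Mitf (ENSMUSG00000035158, chromosome 6), the melanocyte and osteoclast member of the family, stood at 0.11, 0.05 and 1.42 FPKM in p53-heterozygous, 0.14, 0.52 and 0.58 FPKM in Tsc1-deleted and 0.71, 0.51 and 0.61 FPKM in double-mutant libraries. It did not reach 1 FPKM in 3 libraries and was not tested. Rescaled, the p53-heterozygous libraries at 1.14, 0.592 and 1.90 FPKM lay above the Tsc1-deleted libraries at 0.135, 0.547 and 0.553 FPKM. The 0.592 rests on 4 estimated reads in p53-heterozygous library 2. Of all genes tested 13.7% were lower in Tsc1-deleted than in p53-heterozygous liver without overlap. Tfe3 made up 65.4%, 46.7% and 68.2% of the summed family FPKM in p53-heterozygous, 63.8%, 75.1% and 64.5% in Tsc1-deleted and 73.2%, 61.4% and 68.1% in double-mutant libraries, and these shares overlapped. The p53-heterozygous library with the highest deposited Tfe3, Tfeb and Mitf was library 3, which also held the 568 hepatocyte marker sum and the highest stellate and macrophage sums, and the part of those cells in the levels was not tested.

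Taking the genes by comparison, the step from Tsc1-deleted to double-mutant liver asks what the p53+/- allele adds where hepatocytes lack Tsc1. All 7 tested genes other than Rragd had positive differences on both scales, with a median of 0.46 as deposited and 0.44 rescaled, against 0.29 and 0.26 over all genes tested. None passed an adjusted p of 0.05 in limma, and none had an unadjusted p under 0.05. Of all genes, 0.025% passed as deposited and 0.0159% rescaled. Flcn and Fnip1 were the only ones of the 7 whose double-mutant libraries all lay above the Tsc1-deleted libraries, and 11.4% of all genes did so as deposited and 12.9% rescaled. Without any single library none of the 7 passed.

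Tsc1-deleted minus p53-heterozygous liver asks what hepatocyte loss of Tsc1 does, although the groups differ in both genes. None of the 7 passed on either scale, against 12.2% of all genes as deposited and 1.11% rescaled. An unadjusted limma p under 0.05 was found for 2 of them as deposited and 1 rescaled. Over all genes, 4029 of 12014 as deposited and 2296 of 12591 rescaled had such a p. The median of the 7 was 1.31 as deposited and -0.56 rescaled, against 1.07 and -0.13 over all genes. As deposited, Rragc alone of the 7 lay above the p53-heterozygous libraries without overlap, as did 27.4% of all genes. Rescaled, 0 of the 7 did so, beside 8.33% of all genes. Fnip1 and Tfe3 lay below without overlap, as did 13.7% of all genes. Without p53-heterozygous library 3 all 7 passed as deposited, as did 92.1% of all genes. Rescaled without that library 2 passed, Rragc at 1.37 (adjusted p = 0.033) and Fnip1 at -1.10 (adjusted p = 0.0473), beside 9.0% of all genes.

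Double mutant minus p53-heterozygous liver asks what Tsc1 loss does on the p53+/- background, and it shares its p53-heterozygous libraries with the comparison before. As deposited, Rragc, Rraga and Fnip2 passed, at log2 rises of 3.04, 2.42 and 1.79 and adjusted p of 0.0224, 0.0438 and 0.0385, beside 32.4% of all genes. Rescaled, none of the 7 passed, beside 4.74% of all genes. An unadjusted limma p under 0.05 was found for 1 of the 7, beside 2895 of 12591 genes. The median of the 7 was 1.75 as deposited and -0.14 rescaled, against 1.38 and 0.15 over all genes. As deposited, 5 of the 7 lay above without overlap, all but Tfeb and Tfe3, as did 41.3% of all genes. Rescaled, Rragc alone did so, beside 16.6% of all genes. As deposited, none passed without p53-heterozygous library 1 or 2 or without any of the double-mutant libraries, 1 passed without any of the Tsc1-deleted libraries, and 7 passed without p53-heterozygous library 3. All genes passed at 6.58% and 7.21% without p53-heterozygous libraries 1 and 2, at 2.63% to 7.63% without a double-mutant library, at 18.9% to 27.0% without a Tsc1-deleted one, and at 95.0% without p53-heterozygous library 3. Rescaled and without that library, Rragc passed at 1.87 (adjusted p = 0.0053), beside 24.7% of all genes. Rescaled and without libraries 1 and 2, Tfe3 passed as lower, at -1.12 (adjusted p = 0.0473), beside 27.2% of all genes.

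**Figure D3:**
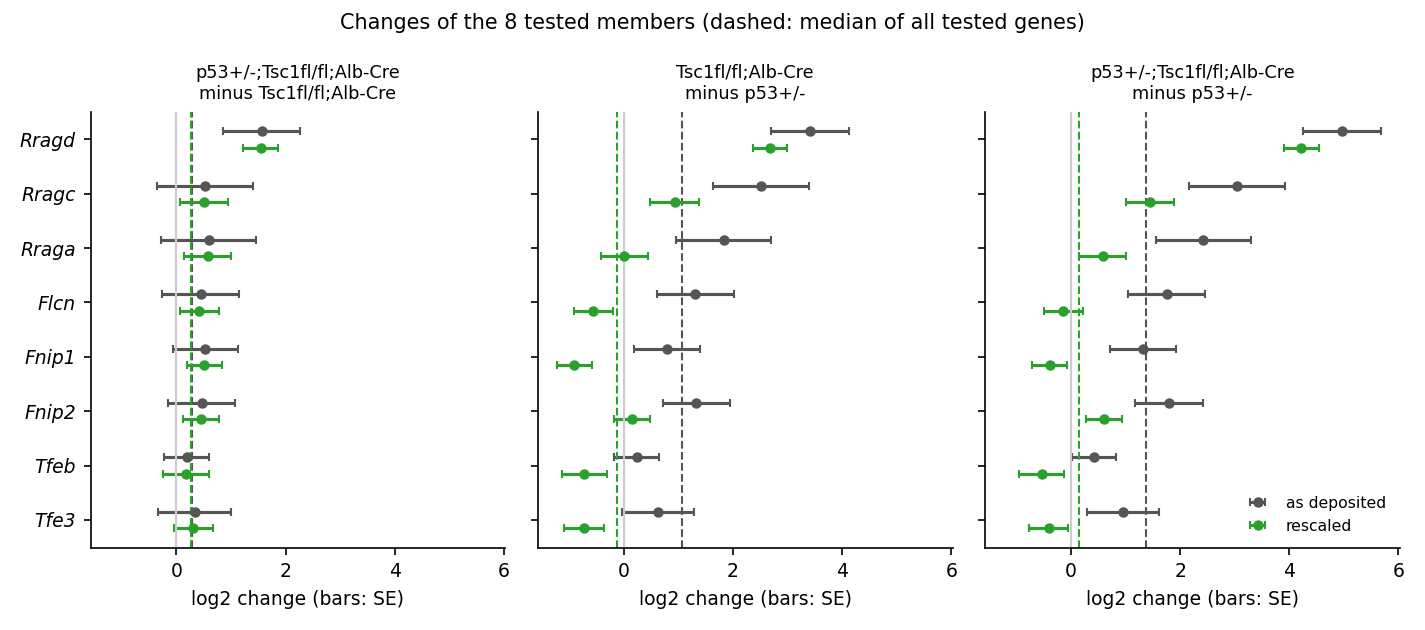
Log2 difference of the 8 tested genes in the 3 comparisons, with bars of 1 standard error, as deposited (grey) and rescaled (green); dashed lines give the median of all tested genes on each scale. Rragd lies to the right of the other genes in each panel, and its value was known when the genes were chosen; in the left panel the other genes lie between 0.18 and 0.59, and in the other panels the green points lie to the left of the grey ones.

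The genes that act next to the Rag GTPases were described from fixed lists. Ragulator, the complex that anchors the Rags to the lysosome, and the arginine transporter SLC38A9 had 5 of 6 genes tested. None passed between double mutant and Tsc1-deleted liver or between Tsc1-deleted and p53-heterozygous liver on either scale. Against p53-heterozygous liver the double mutant had 2 of 5 higher as deposited and 0 rescaled, beside 31.9% and 2.46% of all genes called higher. The rescaled median was 0.25 against 0.15 over all genes. The 2 genes called as deposited became 0 without p53-heterozygous library 1 or 2 or double-mutant library 2 or 3, 1 without any Tsc1-deleted library or double-mutant library 1, and 5 without p53-heterozygous library 3, where 95.0% of all genes passed. Rescaled, 1 was called higher without p53-heterozygous library 3, beside 24.7% of all genes. In Tsc1-deleted minus p53-heterozygous liver the 0 called as deposited became 5 without p53-heterozygous library 3, where 92.1% of all genes passed. Lamtor2, a Ragulator subunit, stood at 29.6, 25.1 and 54.5 rescaled FPKM in p53-heterozygous, 39.5, 44.6 and 34.2 in Tsc1-deleted and 41.5, 41.0 and 40.7 in double-mutant libraries. Lamtor5, another subunit, stood at 19.2, 27.5 and 83.1, at 26.6, 26.5 and 37.3, and at 44.0, 31.5 and 34.9 rescaled FPKM. The 3 genotypes overlapped for both subunits.

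GATOR1, which switches RagA and RagB off, with its anchor KICSTOR had 5 of 6 genes tested, and GATOR2, which opposes GATOR1, had 4 of 5 tested as deposited and 5 rescaled. In these lists 1 gene passed, the GATOR1 gene Nprl2, which was 1.97 higher in double-mutant than in p53-heterozygous liver as deposited, adjusted p = 0.0392, and 0.80 higher rescaled, adjusted p = 0.319. Of all genes 31.9% were called higher there as deposited and 2.46% rescaled. As deposited, none of the GATOR1 and KICSTOR genes passed there without any 1 library other than p53-heterozygous library 3, and 5 passed without that library. All 4 GATOR2 genes then tested also passed without it, beside 95.0% of all genes. In Tsc1-deleted minus p53-heterozygous liver the counts without it were again 5 and 4, against 0 and 0 with it, beside 92.1% of all genes. Rescaled and without that library, 2 of 4 GATOR2 genes passed in double mutant minus p53-heterozygous liver, beside 24.7% of all genes. Nprl2 stood at 1.32, 5.20 and 5.59, at 5.96, 4.94 and 7.11, and at 9.49, 4.84 and 7.12 rescaled FPKM in the 3 genotypes, and the groups overlapped. The KICSTOR gene Kptn stood between 1.88 and 4.05 rescaled FPKM in all 9 libraries. The GATOR2 genes Sec13 and Seh1l ranged from 7.31 to 32.0 and from 2.59 to 23.1 rescaled FPKM, each with its highest value in p53-heterozygous library 3. Rescaled medians for double mutant minus Tsc1-deleted liver were 0.18 for GATOR1 and KICSTOR and 0.32 for GATOR2, against 0.26 over all genes.

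The amino acid sensors, which pass leucine and arginine levels to GATOR2 and the Rags, had 6 genes tested. Between double mutant and Tsc1-deleted liver none passed, and all 6 were positive with a rescaled median of 0.51, against 0.26 over all genes. Sesn3, the gene of a stress-induced sestrin, passed in double mutant minus p53-heterozygous liver on both scales. It stood at 0.08, 0.08 and 1.15 FPKM in p53-heterozygous, 2.97, 2.49 and 10.5 FPKM in Tsc1-deleted and 8.41, 7.12 and 6.68 FPKM in double-mutant libraries, so that Tsc1-deleted library 3 exceeded the double mutant. The rescaled log2 rise was 2.03, standard error 0.43, adjusted p = 0.036, and 2.46% of all genes were called higher. As deposited it did not pass without double-mutant library 1 (adjusted p = 0.0557) or 2 (0.0583). Rescaled it did not pass without p53-heterozygous library 1 (adjusted p = 0.0881) or 2 (0.0882), Tsc1-deleted library 1 (0.062), or double-mutant library 1 (0.121), 2 (0.131) or 3 (0.0951), without p53-heterozygous libraries 1 and 2 together (0.063), or with only the 6 libraries compared (0.0528). As deposited, 4 of the 6 passed as higher in double mutant minus p53-heterozygous liver, and Sesn3 passed in Tsc1-deleted minus p53-heterozygous liver, at 2.00, adjusted p = 0.0446. Of all genes 31.9% and 12.1% were called higher in these comparisons. The 4 became 1 and 2 without p53-heterozygous libraries 1 and 2, 6 without library 3, where 95.0% of all genes passed, 2 without Tsc1-deleted library 1 or 2, and 0, 1 and 1 without double-mutant libraries 1, 2 and 3. In Tsc1-deleted minus p53-heterozygous liver the 1 became 0 without any other library and 6 without p53-heterozygous library 3, where 92.1% of all genes passed. Rescaled, 3 sensors passed in double mutant minus p53-heterozygous liver without p53-heterozygous library 3, beside 24.7% of all genes.

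The 35 MiT/TFE target genes, lysosomal and autophagy genes with CLEAR elements, were all tested. Between double mutant and Tsc1-deleted liver 34 of 35 were positive, with a rescaled median of 0.50 against 0.26 over all genes. None passed, 8 lay above without overlap rescaled, and 12.9% of all genes did so. Between Tsc1-deleted and p53-heterozygous liver 5 were called higher as deposited and 0 rescaled, with medians of 2.03 and 0.48, beside 12.1% and 0.318% of all genes called higher. Between double mutant and p53-heterozygous liver 26 were called higher as deposited and 6 rescaled, with medians of 2.67 and 0.88, beside 31.9% and 2.46% of all genes called higher.

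Among those 6 the largest rises were in Ctsl, the gene of the lysosomal protease cathepsin L, Gabarapl1, an autophagosome protein of the Atg8 family, and Lamp1, the main lysosomal membrane protein. Ctsl stood at 38.1, 12.9 and 23.8 rescaled FPKM in p53-heterozygous, 113, 62.3 and 208 in Tsc1-deleted and 292, 237 and 228 in double-mutant libraries. Its rescaled log2 rise was 3.40, adjusted p = 0.0219. Gabarapl1 stood at 46.9, 59.2 and 30, at 200, 173 and 287, and at 420, 308 and 217 rescaled FPKM, and rose by 2.77, adjusted p = 0.0226. Lamp1 stood at 109, 42.8 and 150, at 325, 208 and 428, and at 514, 814 and 477 rescaled FPKM, and rose by 2.70, adjusted p = 0.0403. In each of the 3 genes every library with the Tsc1 deletion lay above every p53-heterozygous library, and the double mutant overlapped the Tsc1-deleted liver for Gabarapl1 only. The 3 genes were picked for passing with the largest rises over p53-heterozygous liver, so their separation from it largely follows from the choice. Rescaled, 8.33% of all genes lay above in Tsc1-deleted minus p53-heterozygous liver and 16.6% in double mutant minus p53-heterozygous liver. In double mutant minus Tsc1-deleted liver 12.9% did so. Rescaled, none of the 3 passed without any 1 of the double-mutant libraries, where adjusted p ran from 0.0686 to 0.159. Without p53-heterozygous library 2 none passed either, at 0.0612 for Ctsl, 0.0535 for Gabarapl1 and 0.0998 for Lamp1. Without library 1, Ctsl alone passed, with 0.0552 for Gabarapl1 and 0.0814 for Lamp1, and Lamp1 also did not pass without Tsc1-deleted library 1 (0.0799) or 2 (0.0684). With only the 6 libraries compared none of the 3 passed rescaled, at 0.064 for Ctsl, 0.0759 for Gabarapl1 and 0.103 for Lamp1. As deposited, Lamp1 did not pass without double-mutant library 2 (0.053).

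The count of target genes called higher in double mutant minus p53-heterozygous liver depended on single libraries. As deposited the 26 became 6 without p53-heterozygous library 1 or 2, 35 without library 3, 15 without Tsc1-deleted library 1 or 2, and 5, 3 and 7 without double-mutant libraries 1, 2 and 3. The share of all genes called in these fits was 6.58% and 7.21% without p53-heterozygous libraries 1 and 2, 95.0% without library 3, 18.9% and 20.8% without Tsc1-deleted libraries 1 and 2, and 4.37%, 2.63% and 7.63% without the double-mutant libraries. Rescaled the 6 became 2 and 0 without p53-heterozygous libraries 1 and 2, 23 without library 3, 3 without Tsc1-deleted library 1 or 2, and 0 without any of the double-mutant libraries. The share of all genes in these fits was 1.36%, 0.596%, 24.7%, 1.51% and 2.11% in the same order, and 0.258% to 0.463% without a double-mutant library. Without p53-heterozygous libraries 1 and 2 together, 7 were called higher and 1 lower rescaled, beside 27.2% of all genes. For Tsc1-deleted minus p53-heterozygous liver, the 5 called as deposited became 0 without any of the Tsc1-deleted libraries, 2 without p53-heterozygous library 1, 3 without library 2 and 34 without library 3, where 92.1% of all genes were called. Rescaled, the 0 became 11 without library 3, beside 9.0% of all genes. Without libraries 1 and 2 together it became 4 higher and 2 lower, beside 35.2% of all genes.

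**Figure D4:**
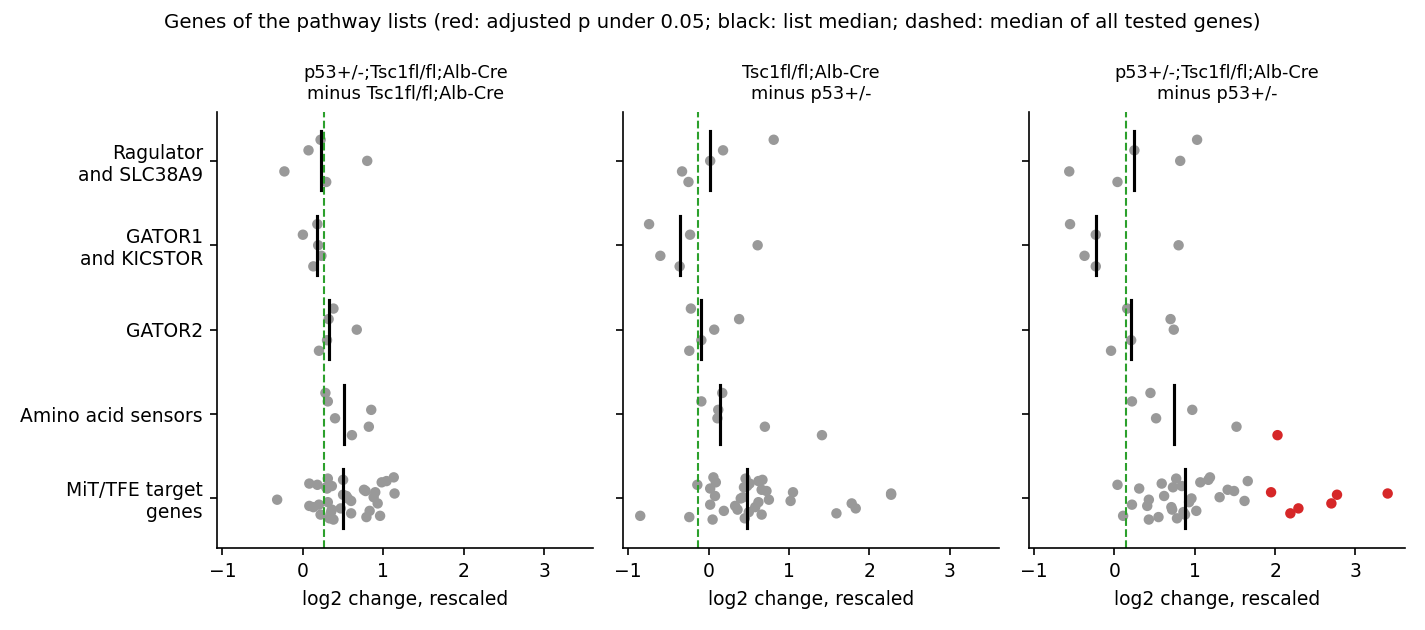
Rescaled log2 difference of each tested gene of the 5 lists in the 3 comparisons; red points passed an adjusted p of 0.05, black bars give the list median and dashed lines the median of all tested genes. No point is red in the left and middle panels, and in the right panel 1 amino acid sensor and 6 MiT/TFE target genes are red.

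The genes whose rescaled pattern over the 9 libraries was most like that of Rragd were found by the root mean square difference of centred log2(FPKM + 1) values among 12590 other tested genes. They were Myh14, a non-muscle myosin heavy chain, at 0.50, Laptm4b, a lysosomal membrane protein, at 0.53, Ggt1, the gamma-glutamyltransferase of glutathione breakdown, at 0.55, Gldc, a subunit of the glycine cleavage system, at 0.56, and Tmem37 at 0.56. Laptm4b stood at 4.18, 4.64 and 6.95 rescaled FPKM in p53-heterozygous, 17.7, 13.3 and 30.8 in Tsc1-deleted and 64.7, 95.7 and 45.5 in double-mutant libraries, and the 3 genotypes did not overlap. Ggt1 stood at 0.121, 0 and 0.443, at 1.91, 7.75 and 3.66, and at 30.3, 27.2 and 13.6 rescaled FPKM, also without overlap. Both genes were picked for a pattern like that of Rragd, so this separation largely follows from the choice. Myh14 stood at 0.556, 0.241 and 0.456, at 4.43, 5.86 and 14.7, and at 16.3, 12.6 and 20.2 rescaled FPKM, where Tsc1-deleted library 3 lay within the double-mutant range. As deposited only Laptm4b stayed among the 5 nearest, and the other 4 ranked 28th to 65th. Of the other 7 tested genes of the group, Rragc was nearest to Rragd, at rank 496 and a difference of 1.21, followed by Fnip2 at rank 2596 and Rraga at rank 3108, and Flcn, Fnip1, Tfe3 and Tfeb ranked from 7992 to 10036.

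Neighbouring gene models could add reads to some of the 10 where counting ignored strand, which the sources used here do not state. In the GENCODE annotation Rragd overlaps the pseudogene Gm11943 on the opposite strand, which was listed at 0 in all 9 libraries. Rragc overlaps 4930535I16Rik, listed at 0, and the pseudogene Gm12902, at most 0.22 FPKM. Fnip2 overlaps Gm17359 on the opposite strand, at most 1.40 FPKM, in double-mutant library 1, and Gm3513 at most 0.10 FPKM. Fnip1 overlaps the small RNA gene Gm24198, at most 0.44 FPKM, Mitf overlaps Gm15531, listed at 0, and the other 5 genes overlap none.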

How the data were processed

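Liver RNA was extracted with TRIzol and depleted of ribosomal RNA, per the labels' protocols, although another label calls it polyA RNA. It was read in single reads of 50 cycles, with 3 lanes of 4 samples. The sources used here do not tie libraries to lanes. Per the submitters' processing notes, the tools were cutadapt, STAR and StringTie, without versions, on build mm9. The deposited tables hold 1 FPKM value per gene, made by the authors. The header names no unit, and FPKM was read from the values. Library depth was estimated from the FPKM step that 1 read makes in genes with 1 transcript. GENCODE mouse release 21 held 52403 of the 52550 identifiers. It is on a later build, so its gene coordinates are not printed. Promoters are from RefSeq.

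The deposited FPKM were tested as log2(FPKM + 1) with limma 3.58.1 in R 4.3.3, with trend and robust moderation. A gene entered if 3 or more libraries had 1 FPKM or more, which gave 12014 genes as deposited and 12591 rescaled. All 9 libraries were in 1 fit with 1 spread per gene, so each comparison also used the spread of the group outside it. The p-values were Benjamini-Hochberg adjusted over all genes that entered, and 0.05 was the threshold. Rescaling used the biotypes of GENCODE. The test was also tested on simulated data. Python 3.11.15, numpy 2.4.6 and pandas 2.3.3 made the tables, and matplotlib 3.10.9 the figures.

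The 10 genes, the lists and the rules were chosen with earlier results of these data known. Besides the 10 genes, Tsc1, Trp53 and Alb, the text names up to 3 genes per list that passed on both scales, with the largest change, or else the 2 with the highest mean, and the 5 most like Rragd. The amino acid sensor list held 8 names, of which 2 are older symbols. Markers of hepatocytes, cholangiocytes, endothelial cells, Kupffer cells and macrophages, stellate cells and fibroblasts, lymphocytes, erythroid cells and melanocytes were summed per library.

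The settings tried were other pseudocounts, filters, scalings and moderation, only the 6 libraries compared, a replicate block, and each library left out. Rescaling with each library left out, apart from p53-heterozygous library 3, and the settings for the lists were added after the data were seen.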

Additional observations from a re-analysis of the deposited data

How the results depend on the processing

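In double mutant minus Tsc1-deleted liver, the 7 tested genes other than Rragd had positive values in 208 of 212 alternative values and were called in none. The exceptions were Tfeb, -0.03 with quantile normalization and -0.06 to 0.33 with single libraries left out, and Tfe3, -0.00 with quantile normalization. All 212 values are fits of the same libraries and so are not separate evidence. The median of all genes tested was positive too, at 0.29 as deposited and 0.26 rescaled. Rragd ranged from 1.16 to 1.69 in this comparison, from 1.76 to 5.20 in Tsc1-deleted minus p53-heterozygous and from 3.10 to 6.82 in double mutant minus p53-heterozygous liver. Against p53-heterozygous liver the directions of several genes turned with the scaling, and with libraries 1 and 2 left out. For Tsc1-deleted minus p53-heterozygous liver, nuclear rescaling, alone, with the 6 libraries compared or with the replicate block, gave Flcn -0.56, Fnip1 -0.91, Tfeb -0.72 and Tfe3 -0.73. Median-ratio rescaling gave Flcn -0.27, Fnip1 -0.60 and Tfe3 -0.40. Quantile normalization gave Flcn -0.40, Fnip1 -0.66, Tfeb -0.60 and Tfe3 -0.45. Without p53-heterozygous libraries 1 and 2, rescaled, Rraga was -0.48, Flcn -0.26, Fnip1 -0.51, Fnip2 -0.14, Tfeb -0.84 and Tfe3 -1.43. Single libraries left out, on either scale, gave Rraga -0.39 to 2.79, Flcn -0.77 to 1.91, Fnip1 -1.10 to 1.27, Tfeb -1.18 to 0.63 and Tfe3 -0.98 to 1.46. For double mutant minus p53-heterozygous liver, nuclear rescaling in the same fits gave Flcn -0.14, Fnip1 -0.39, Tfeb -0.54 and Tfe3 -0.41. Median-ratio rescaling gave Flcn -0.18, Fnip1 -0.39 and Tfe3 -0.37, and quantile normalization Flcn -0.29, Fnip1 -0.49, Tfeb -0.64 and Tfe3 -0.46. Without libraries 1 and 2, rescaled, Tfeb was -0.66 and Tfe3 -1.12. Single libraries left out gave Flcn -0.34 to 2.35, Fnip1 -0.59 to 1.80, Tfeb -1.0 to 0.82 and Tfe3 -0.66 to 1.79. The cause was not tested.

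Counts over all genes moved more. Double mutant minus Tsc1-deleted liver had 3 genes called, 1 with no filter, 0 without trend and robust steps, and 0 to 6 with single libraries left out. Tsc1-deleted minus p53-heterozygous liver had 1470, against 140 rescaled, 599 with no filter, 389 with median-ratio rescaling, 100 with quantile normalization, 262 with only the 6 libraries compared, 7 with these rescaled, 4214 rescaled without p53-heterozygous libraries 1 and 2, and 1 to 10700 with single libraries left out. Double mutant minus p53-heterozygous liver had 3892, against 597, 1142, 1030, 860, 1331 and 54 in the same order, and 32 to 11037 with single libraries left out. Of the 7 genes, 1 passed in Tsc1-deleted minus p53-heterozygous liver with a pseudocount of 0.1, a filter at 5 FPKM, or no trend and robust steps. The share of all genes called at those settings is not given here, so this count is not read as a result about the genes. With single libraries left out 0 to 7 passed. In double mutant minus p53-heterozygous liver the 3 became 0 rescaled, with no filter or with only the 6 libraries compared, 1 with median-ratio or quantile scaling or rescaled without libraries 1 and 2, and 0 to 7 with single libraries left out. Of the 5 genes most like Rragd, 1 was shared as deposited.

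The titles number the libraries of each group 1 to 3. Deviations of same-numbered libraries correlated over 0.1 in 4 of 9 pairs, from -0.197 to 0.317, so the numbers were not taken to pair them. With a replicate block the counts called were 35, 2277 and 5974 in the 3 comparisons as deposited and 1, 73 and 563 rescaled, and of the 7 genes 1 passed in Tsc1-deleted minus p53-heterozygous liver as deposited, and 0 rescaled in double mutant minus p53-heterozygous liver. Lamp1 had an adjusted p of 0.052 in that comparison with the block, rescaled. Depth limits p53-heterozygous libraries 1 and 2 most, where Rragd rests on 12 and 4 reads.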

Other observations

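Tfec, the fourth gene of the MiT/TFE family, was outside the 10 genes and was looked up after its values were seen. The p53-heterozygous libraries held 0.07, 0.03 and 2.89 FPKM, the Tsc1-deleted libraries 0.18, 0.25 and 0.21 FPKM, and the double-mutant libraries 0.10, 0.12 and 0.28 FPKM. Its highest level was thus in p53-heterozygous library 3, the library with the highest macrophage and stellate cell marker sums.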
